A study of Homo sapiens with 4 samples.

Results

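The KEAP1-NRF2 system was followed in T24 cells, a human bladder carcinoma line, through 10 named genes: NFE2L2, which encodes the transcription factor NRF2, its inhibitor KEAP1, and the NRF2 targets HMOX1, NQO1, GCLC, GCLM, TXNRD1, SRXN1, AKR1C1 and AKR1B10. They were found by gene symbol among the 57879 genes of the deposited RNAseq tables, and the estimated counts of each gene's transcripts were summed. The control cells carried the empty lentiviral vector (EV). The TET1-CD overexpression cells carried the same kind of vector with the catalytic domain of TET1, a dioxygenase that oxidizes 5-methylcytosine in DNA. Infected cells were selected with puromycin, all were grown in RPMI with FCS, and all 4 libraries have the source label T24_induced, which the labels do not explain. Each group has 2 libraries, and the sources do not say whether they came from separate cultures, so p-values measure the spread between libraries, which may be technical. The domain was expressed from a vector, without the rest of the TET1 protein, and the libraries held no cells with its inactive mutant.

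Under basal conditions KEAP1 holds NRF2 for ubiquitination by the CUL3 ligase, so that NRF2 protein is kept low by degradation more than by transcription. Electrophiles and oxidants modify KEAP1, NRF2 escapes and, paired with a small MAF protein, binds antioxidant response elements near genes for glutathione synthesis, thioredoxin recycling, heme breakdown, quinone and carbonyl reduction and NADPH supply. BACH1, a heme-sensing repressor, competes for the same elements. Messenger RNA levels of NFE2L2 and KEAP1 therefore do not report NRF2 activity, and in bulk RNA a change in the share of cells cannot be told apart from a change in RNA per cell.

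The libraries held 17442143 to 20295266 estimated counts, and the 10 genes took 0.202% to 0.22% of them. TET1 itself had 111 and 83 counts in the control and 2939 and 3310 in the TET1-CD libraries. Among epithelial markers, KRT7, KRT8 and KRT18 were abundant, whereas KRT5 and KRT20 were at 0 and no uroplakin gene (UPK1A, UPK1B, UPK2, UPK3A) passed 6 counts in any library. The summed FPKM (fragments scaled to transcript length and library size) of the 16 epithelial markers was 1484 and 1434 in the control and 1664 and 1630.0 in the TET1-CD libraries. By edgeR, KRT7 (log2 fold change 0.34, adjusted p = 0.00175), KRT18 (0.18, adjusted p = 0.0414), KRT19 (1.01, adjusted p = 0.00273), GATA3 (1.25, adjusted p = 0.0163) and FOXA1 (0.37, adjusted p = 0.0204) rose. KRT8 (-0.08, adjusted p = 0.338), PPARG (0.10, adjusted p = 0.465) and EPCAM (0.54, adjusted p = 0.107) did not pass edgeR's test. CDH1 and TP63 had 0 to 2 counts. The summed FPKM of 5 fibroblast markers was 1.68 and 1.55 in the control and 4.9 and 4.01 in the TET1-CD libraries. It was carried by COL1A1, which rose (log2 fold change 1.89, adjusted p = 1.03e-05 by edgeR). COL1A2 had 0 to 2 counts. The sum of 6 leukocyte markers was 13.72 and 18.49 FPKM in the control and 13.36 and 12.98 in the TET1-CD libraries. It was carried by CD68, which did not pass (log2 fold change -0.31, adjusted p = 0.129 by edgeR), while PTPRC had 0 to 2 counts. The sum of 2 endothelial markers was 0.25 to 0.33 FPKM. Mitochondrial genes took 2.91% and 3.39% of the control and 2.49% and 2.73% of the TET1-CD libraries. The part of these differences in the results below was not tested.

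The sequences that define the pathway were sought in the promoters, because NRF2 and BACH1 both act through them. RefSeq windows of 300 bases, from 250 before to 50 after a transcription start (GRCh38.p14), were given for 8 of the 10 genes, with 11 windows in all. The core of the antioxidant response element was searched on both strands as TGACNNNGC, whose first letters TGAC also open the AP-1 site. It occurred in 13.3% of the 35116 windows of the table and in 4 of the 11 windows here, which belong to KEAP1, GCLM and TXNRD1. The matches are printed with 10 bases on either side and the motif in capitals.
KEAP1, chr19:10502807-10502835, minus strand: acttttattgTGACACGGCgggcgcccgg
KEAP1, chr19:10502784-10502812, plus strand: caggtcaccaTGACTAAGCagagccgggc
GCLM, chr1:93909446-93909474, plus strand: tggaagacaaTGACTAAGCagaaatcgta
TXNRD1, chr12:104215670-104215698, plus strand: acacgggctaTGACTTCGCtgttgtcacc
TXNRD1, chr12:104215761-104215789, minus strand: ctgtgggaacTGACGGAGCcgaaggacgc
TXNRD1, chr12:104286920-104286948, minus strand: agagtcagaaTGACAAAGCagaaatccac
The match of GCLM ended 26 bases before the start, and its 9 letters were the same as in a match of KEAP1. A match is a description of letters and not a bound site, and known elements of several of these genes lie outside such windows. The windows of NFE2L2, NQO1, GCLC, SRXN1 and AKR1C1 held none of these letters. CpG dinucleotides, the substrate of TET enzymes when methylated, ranged from 3 in the AKR1C1 window to 46 in that of SRXN1, against a median of 14 over all windows. No methylation was measured here.

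Per length, NQO1 and TXNRD1 stood far above the rest. NQO1, the quinone reductase, had 348 to 391 FPKM over the 4 libraries, and TXNRD1, cytosolic thioredoxin reductase, had 302 to 389, so their order could not be told. NFE2L2 followed with 55.9 to 57.3 FPKM and SRXN1 with 43.7 to 54 FPKM. HMOX1 (24.8 to 32.8 FPKM), GCLM (24.1 to 31.4 FPKM) and KEAP1 (24.8 to 28.1 FPKM) overlapped one another. AKR1C1 had 7.89 to 12.9 FPKM and GCLC 5.89 to 6.01 FPKM. AKR1B10 was at the bottom with 0 to 0.18 FPKM.

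In the TET1-CD overexpression cells, 4 of the NRF2 targets rose by small amounts: GCLM, SRXN1, HMOX1 and AKR1C1, by 1.19-fold to 1.39-fold. NFE2L2, KEAP1, NQO1, GCLC and TXNRD1 did not pass the test, and AKR1B10 was too low to be tested. The test was edgeR's quasi-likelihood test, adjusted by Benjamini-Hochberg over the 14573 genes with enough counts. The 4 called members, all of them higher, are to be read against the 19.7% of all genes tested that were called at the same adjusted p of 0.05, 10.0% higher and 9.61% lower. No member reached a fold change of 2, which 3.77% of the genes tested did with an adjusted p under 0.05 (2.72% higher and 1.04% lower). In normalized counts, both TET1-CD libraries lay above both control libraries for 6 of the 9 tested members and below them for 1. Of all genes tested, 61.0% had groups that did not overlap (30.8% above and 30.2% below). The median log2 fold change of the 9 tested members was 0.12, against 0.001 for all genes tested. DESeq2 called 2 of the 9, GCLM and SRXN1, and over all 14573 genes it called 887 higher and 852 lower. Without TET1-CD replicate 1 or without TET1-CD replicate 2 none was called by edgeR, and the calls over all genes fell from 1464 higher and 1401 lower to 433 and 399 and to 520 and 494.

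**Figure D1:**
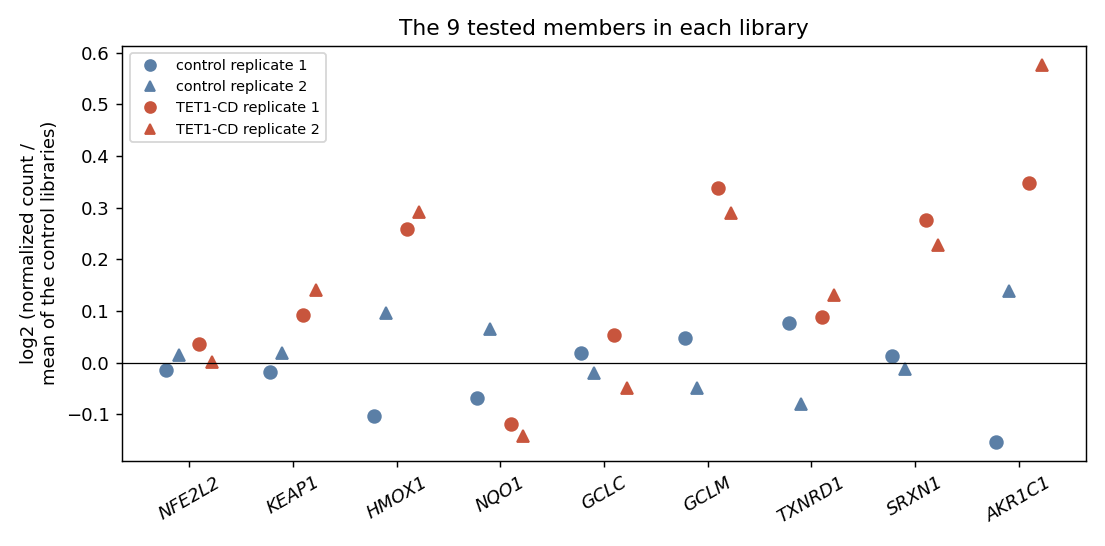
Normalized counts of the 9 tested members in each library, as log2 of the ratio to the mean of the control libraries (vertical axis). Circles are replicate 1 and triangles replicate 2, with control libraries in blue and TET1-CD libraries in red. Red points lie above both blue points for KEAP1, HMOX1, GCLM, TXNRD1, SRXN1 and AKR1C1, below them for NQO1, and among them for NFE2L2 and GCLC.

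Among the regulators, the NFE2L2 message hardly differed between the groups. Its gene (ENSG00000116044, hg19 chromosome 2, 178092323 to 178257425, minus strand) had 3083 and 2689 counts in the control and 2769 and 3019 in the TET1-CD libraries. The groups overlapped after normalization. Its log2 fold change was 0.02 (SE 0.05, 95% interval -0.10 to 0.14, adjusted p = 0.843 by edgeR), an interval of 0.934-fold to 1.1-fold. The listed span of AGPS reaches the first bases of NFE2L2 on the opposite strand.

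KEAP1, the substrate adaptor that captures NRF2 (ENSG00000079999, chromosome 19, 10596796 to 10614417, minus strand), had 1378, 1208, 1290 and 1491 counts in control 1 and 2 and TET1-CD 1 and 2. After normalization these were 1288 ± 22.6 in the control and 1396 ± 33.4 in the TET1-CD cells (SD, n = 2), with the TET1-CD libraries above. The log2 fold change of 0.12 (SE 0.06, 95% interval -0.01 to 0.25) did not pass edgeR's test, with an adjusted p of 0.196. In FPKM, KEAP1 stood to NFE2L2 as 0.444 and 0.453 in the control and 0.48 and 0.501 in the TET1-CD libraries, a difference between genes that was not tested.

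The clear difference among the regulators was in BACH1, the repressor of HMOX1 and other genes with such elements. It had 2088 and 1811 counts in the control and 1166 and 1290 in the TET1-CD libraries. Both TET1-CD libraries were well below the control libraries, at 1235 ± 8.63 against 1940.5 ± 19.5 normalized counts (SD, n = 2). BACH1 fell by 0.65 on the log2 scale (SE 0.06, adjusted p = 5.46e-05 by edgeR), and its log2 fold change stayed between -0.67 and -0.64 and was called in each of the 12 settings run. PGAM5, a mitochondrial phosphatase that binds KEAP1, rose with a log2 fold change of 0.40 (SE 0.06, adjusted p = 0.00146 by edgeR), also in each of the 12 settings. Of the 12 regulators listed beside the members, BACH1 and PGAM5 were the called ones, 16.7% against 19.7% of all genes tested. The other 10 had log2 fold changes between -0.10 and 0.18. These include CUL3 at 0.18 (adjusted p = 0.0542 by edgeR), the small MAF genes MAFF at 0.10, MAFG at 0.04 and MAFK at -0.10, and SQSTM1, whose protein draws KEAP1 into autophagy, at 0.15.

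HMOX1, heme oxygenase, which cuts heme into biliverdin, iron and carbon monoxide, is a well-known target of both NRF2 and BACH1. Its gene (ENSG00000100292, chromosome 22, 35776354 to 35790207, plus strand) had 910 and 893 counts in the control and 1013 and 1159 in the TET1-CD libraries. The TET1-CD libraries were above the control libraries, with control replicate 1 the lowest of the 4. Normalized counts were 902 ± 87.6 in the control and 1091 ± 18.3 in the TET1-CD cells (SD, n = 2). HMOX1 thus rose with a log2 fold change of 0.28 (SE 0.08), 1.21-fold, with an adjusted p of 0.0289 by edgeR. The call was lost with DESeq2 (adjusted p = 0.0805) and without control replicate 1, where the log2 value was 0.17 (adjusted p = 0.0823 by edgeR).

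NQO1 reduces quinones and is often used as a readout of NRF2. Its gene (ENSG00000181019, chromosome 16, 69740899 to 69760854, minus strand) had 9373, 8788, 7848 and 8628 counts in control 1 and 2 and TET1-CD 1 and 2. After normalization both TET1-CD libraries were below both control libraries, at 8285 ± 94.9 against 9066 ± 590 (SD, n = 2). In FPKM the groups overlapped, at 348 and 391 in the control and 360 and 355 in the TET1-CD libraries. The log2 ratio of mean FPKM was -0.05. On counts, the log2 fold change of -0.13 (SE 0.06, 95% interval -0.26 to 0.0005) did not pass edgeR's test (adjusted p = 0.152). Without control replicate 1 it was -0.20 (adjusted p = 0.00305 by edgeR) and without control replicate 2 it was -0.06 (adjusted p = 0.299 by edgeR).

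Of the 8 other genes of heme and quinone metabolism tested, none was called by edgeR, against 19.7% of all genes tested, and 1 had an unadjusted p under 0.05. Their log2 fold changes ran from -0.21 for FECH, ferrochelatase, to 0.16 for NQO2. The ferritin subunits, which store the iron that heme breakdown frees, were at -0.13 for FTH1 (adjusted p = 0.378 by edgeR) and 0.02 for FTL (adjusted p = 0.904 by edgeR). BLVRA and BLVRB, which reduce biliverdin, were at -0.16 and 0.14.

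Glutathione synthesis begins with glutamate-cysteine ligase, made of the catalytic subunit GCLC and the modifier subunit GCLM. GCLM (ENSG00000023909, chromosome 1, 94350761 to 94374966, minus strand) had 2151 and 1720 counts in the control and 2281 and 2463 in the TET1-CD libraries. Both TET1-CD libraries were above both control libraries, with 2387 ± 57.7 against 1920.4 ± 91.1 normalized counts (SD, n = 2). This was a log2 fold change of 0.31 (SE 0.06), 1.24-fold, with an adjusted p of 0.00526 by edgeR, and it was called in 10 of the 12 settings.

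GCLC (ENSG00000001084, chromosome 6, 53362139 to 53481768, minus strand) had 448, 373, 398 and 414 counts in control 1 and 2 and TET1-CD 1 and 2. The groups overlapped, at 408 ± 7.7 and 409 ± 20.7 normalized counts (SD, n = 2). The log2 fold change was 0.002 (SE 0.09, 95% interval -0.20 to 0.20, adjusted p = 0.99 by edgeR), and its sign turned in some settings. The FPKM of GCLM divided by that of GCLC was 4.15 and 4.05 in the control and 5.13 and 5.32 in the TET1-CD libraries. The difference between the changes of the 2 subunits was not tested.

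Of the 16 other glutathione genes tested, 5 rose and 1 fell, 37.5% against the 19.7% called among all genes tested (10.0% higher and 9.61% lower). SLC7A11 and SLC3A2 form the exchanger that brings cystine into the cell, and their log2 fold changes were 0.30 (SE 0.09, adjusted p = 0.0382) and 0.31 (SE 0.07, adjusted p = 0.009) by edgeR. The value of SLC7A11 was 0.46 without control replicate 1 and 0.15 without control replicate 2. The glutathione transferase GSTA4 had 20 and 17 counts in the control and 47 in each TET1-CD library, a log2 fold change of 1.36 (SE 0.29, adjusted p = 0.0101 by edgeR). GSTM1, another transferase, had 1 and 4 counts in the control and 24 and 26 in the TET1-CD libraries. Its counts summed to 5 and 50, a ratio per count sequenced of 10.2, with an exact 95% interval of 4.1 to 32.7 for counting error only. EdgeR's adjusted p was 0.00462, but GSTM1 passed the count filter only through the TET1-CD libraries. It is among the 5 rises counted above and was not tested where 10 counts were required in every library. GSTM1 has close copies, the listed span of GSTM2 covers it, and GSTM2 had 0, 0, 2 and 6 counts, so which copy the fragments came from is uncertain. The microsomal transferases MGST2 and MGST1 went opposite ways, at 0.35 (adjusted p = 0.0254) and -0.20 (adjusted p = 0.0372) by edgeR. MGST3 was not called, with log2 fold changes of -0.14 to 0.06 over the 12 settings. GSS, GSR, GPX1, GPX4 and GSTP1, which make, recycle or use glutathione, lay between -0.20 and 0.07 and did not pass. Without TET1-CD replicate 1 the calls of GSTA4, GSTM1, MGST1, MGST2, SLC3A2 and SLC7A11 were lost, and without TET1-CD replicate 2 those of all but GSTM1. DESeq2 did not call GSTA4, MGST1 or MGST2.

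TXNRD1 (ENSG00000198431, chromosome 12, 104609557 to 104744061, plus strand) carries electrons from NADPH to thioredoxin. It had 22548 and 17303 counts in the control and 19725 and 22698 in the TET1-CD libraries. The normalized TET1-CD libraries were above the control libraries, with a difference of means smaller than the gap between the control libraries, at 21305 ± 443 against 19739 ± 1509.6 (SD, n = 2). The log2 fold change of 0.11 (SE 0.06, 95% interval -0.03 to 0.25) did not pass edgeR's test (adjusted p = 0.256). Without control replicate 1 it was 0.18 (adjusted p = 0.01 by edgeR) and without control replicate 2 it was 0.03 (adjusted p = 0.642 by edgeR). The 3 matches of the element in its windows went with no call at the level of the gene.

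SRXN1, sulfiredoxin, restores overoxidized peroxiredoxins. It has a single listed transcript (ENSG00000271303, chromosome 20, 627259 to 634014, minus strand), with 2449 and 2057 counts in the control and 2550 and 2752 in the TET1-CD libraries. Both TET1-CD libraries were above the control, at 2667 ± 65.5 against 2239.8 ± 28.4 normalized counts (SD, n = 2). The rise was 0.25 on the log2 scale (SE 0.05), 1.19-fold, with an adjusted p of 0.0104 by edgeR, called in 10 of the 12 settings. Among those settings, SRXN1 and GCLM lost their calls only when a TET1-CD library was left out.

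Of the 16 other genes of the thioredoxin, peroxiredoxin and superoxide group tested, 2 rose and 3 fell, 31.2% against 19.7% of all genes tested (10.0% higher and 9.61% lower). TXNIP, the inhibitor of thioredoxin, had 2568 and 2355 counts in the control and 1086 and 1173 in the TET1-CD libraries. Its TET1-CD libraries were below the control libraries by a wide margin. TXNIP fell by 1.11 on the log2 scale (SE 0.06, adjusted p = 2.51e-06 by edgeR). SOD2, the mitochondrial superoxide dismutase, had 34862 and 35083 counts against 18247 and 19993 and fell by 0.86 (SE 0.07, adjusted p = 5.46e-05 by edgeR). Both falls were called in each of the 12 settings. SESN2, a stress-induced sestrin, fell by 0.42 (SE 0.12, adjusted p = 0.0289 by edgeR).

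SOD1, the cytosolic dismutase, rose with a log2 fold change of 0.26 (SE 0.06, adjusted p = 0.0169) and TXNRD2, the mitochondrial thioredoxin reductase, with one of 0.36 (SE 0.08, adjusted p = 0.00981), both by edgeR. Without TET1-CD replicate 1 or without TET1-CD replicate 2, SOD1 and TXNRD2 lost their calls, as did SESN2, which DESeq2 did not call either. The 6 peroxiredoxins, PRDX1 to PRDX6, lay between -0.11 and 0.13, thioredoxin (TXN) was at -0.12 and catalase (CAT) at -0.21 (adjusted p = 0.0578 by edgeR). None of them passed.

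**Figure D2:**
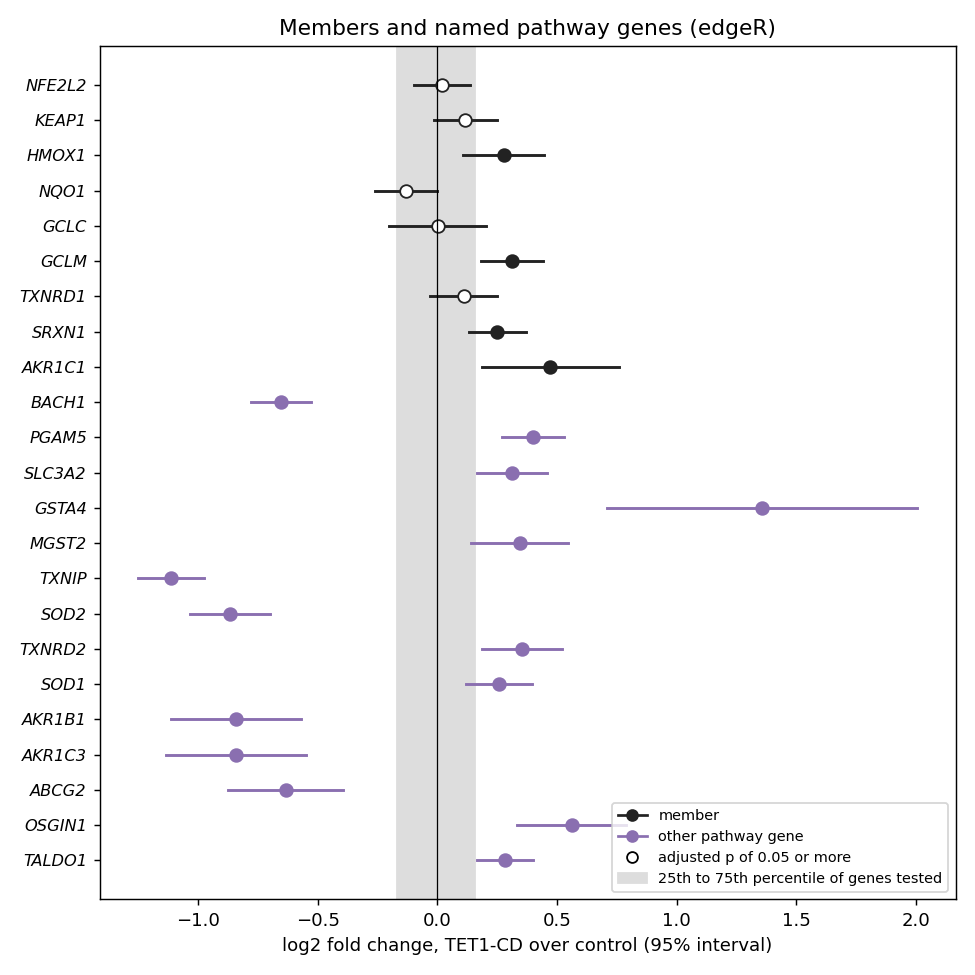
Log2 fold changes, TET1-CD over control, of the 9 tested members (black) and of pathway genes named by rule (purple), with 95% intervals by edgeR (horizontal axis). Filled circles have an adjusted p under 0.05 and open circles do not, and the grey band runs from the 25th to the 75th percentile of all genes tested, -0.17 to 0.16. The called members lie between 0.25 and 0.47, while TXNIP, SOD2, AKR1B1, AKR1C3, BACH1 and ABCG2 lie at -0.63 or below. GSTM1 and AKR1C2, with few counts, are left out.

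AKR1C1 and AKR1B10 are aldo-keto reductases, which reduce carbonyls such as steroids and lipid aldehydes. AKR1C1 (ENSG00000187134, chromosome 10, 4934796 to 5025475, plus strand) had 234 and 245 counts in the control and 287 and 376 in the TET1-CD libraries. The TET1-CD libraries were above the control libraries, at 332 ± 37.3 against 240.2 ± 34.3 normalized counts (SD, n = 2). AKR1C1 rose by 0.47 on the log2 scale (SE 0.13), 1.39-fold, with an adjusted p of 0.0288 by edgeR. The call was lost with DESeq2 (adjusted p = 0.0793) and without control replicate 1 (log2 fold change 0.32, adjusted p = 0.0694 by edgeR). AKR1B10 (ENSG00000198074, chromosome 7, 134212344 to 134226160, plus strand) had 4 and 2 counts in the control and 0 in both TET1-CD libraries. It had too few counts to be tested, with control replicate 1 alone above a floor of 3 counts per library, so no fold is given.

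The rise of AKR1C1 has to be read beside its close copies. Its coding sequence was 98.0% identical to that of AKR1C2 and 91.5% to that of AKR1C3, and 19.1% of its 100-base windows occurred letter for letter in AKR1C2. AKR1C3, a prostaglandin and steroid reductase, had 268 and 274 counts in the control and 134 and 167 in the TET1-CD libraries, and it fell by 0.84 on the log2 scale (SE 0.13, adjusted p = 0.00207 by edgeR). AKR1C2 had 3, 7, 10 and 12 counts and did not pass (log2 fold change 1.12, SE 0.63, adjusted p = 0.244 by edgeR). AKR1C1 thus stood to AKR1C3 as 0.873 and 0.894 in the control and as 2.14 and 2.25 in the TET1-CD libraries, in counts. Summed over AKR1C1 to AKR1C4, the family had 505, 526, 431 and 556 counts, groups that overlapped, with a log2 fold change of -0.06 (SE 0.11, adjusted p = 0.76 by edgeR). How fragments were divided among the copies is not stated, so the change of each single copy is uncertain.

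The transcript that held 66.9% to 75.3% of AKR1C1's counts, ENST00000434459, is not in GENCODE 44, and the gene starts at 4934796 in the files and at 5005445 in GENCODE. The canonical transcript ENST00000380872 held 7.6% and 9.5% in the control and 5.73% and 2.91% in the TET1-CD libraries. AKR1B1, aldose reductase, is a relative of AKR1B10 that was abundant in these cells. It had 25741 and 30498 counts in the control against 14176 and 17373, and it fell by 0.84 on the log2 scale (SE 0.12, adjusted p = 0.00134 by edgeR). AKR1B1 and AKR1C3 were called in each of the 12 settings.

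**Figure D3:**
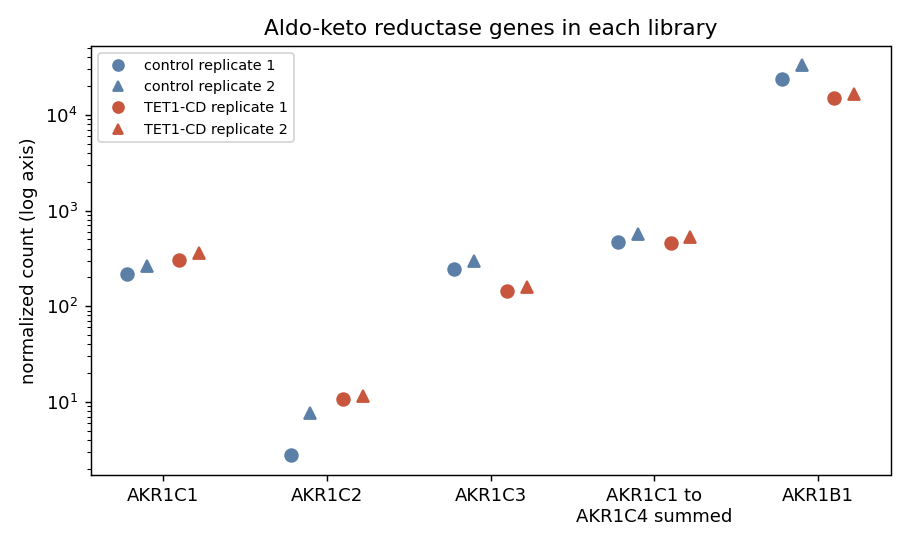
Normalized counts (vertical log axis) of aldo-keto reductase genes in each library, with control in blue and TET1-CD in red, circles for replicate 1 and triangles for replicate 2. AKR1C1 lies higher and AKR1C3 lower in the TET1-CD libraries, while the groups overlap for the sum of AKR1C1 to AKR1C4. AKR1B1 is lower in both TET1-CD libraries.

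Of the 19 other genes of carbonyl and drug metabolism tested, 3 rose and 6 fell, 47.4% against 19.7% of all genes tested (10.0% higher and 9.61% lower). Besides AKR1C3 and AKR1B1, the falls were in the efflux pumps ABCG2 (log2 fold change -0.63, SE 0.11, adjusted p = 0.00313), ABCC3 (-0.47, adjusted p = 0.00579) and ABCC5 (-0.23, adjusted p = 0.0447) and in the epoxide hydrolase EPHX1 (-0.24, adjusted p = 0.0424), all by edgeR. OSGIN1, an oxidative stress-induced growth inhibitor, rose with a log2 fold change of 0.56 (SE 0.10, adjusted p = 0.00453 by edgeR). TRIM16L was at 0.34 (adjusted p = 0.0101) and PTGR1, a prostaglandin reductase, at 0.21 (adjusted p = 0.0431) by edgeR. Without TET1-CD replicate 1, ABCG2, ABCC3 and OSGIN1 lost their calls, with adjusted p-values by edgeR of 0.0572, 0.0676 and 0.0665. Those of TRIM16L, PTGR1, EPHX1 and ABCC5 were lost without TET1-CD replicate 1 and without TET1-CD replicate 2. DESeq2 did not call PTGR1, EPHX1 or ABCC5. The calls of PTGR1 and ABCC5 were also lost without control replicate 1, that of EPHX1 without control replicate 2, and that of ABCC5 when libraries were scaled by size only.

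NADPH, the reductant for both glutathione and thioredoxin, is supplied by the pentose phosphate pathway and related enzymes. The 5 genes described here all had a log2 fold change above 0, and 1 passed, 20% against 19.7% of all genes tested. TALDO1, transaldolase, had a log2 fold change of 0.28 (SE 0.05, adjusted p = 0.00496 by edgeR), a call lost without TET1-CD replicate 1 and without TET1-CD replicate 2. PGD, TKT, ME1 and IDH1 lay between 0.08 and 0.10 and did not pass.

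Over the 86 other pathway genes, 76 were tested and 23 were called, which is 30.3% of the tested, 12 higher and 11 lower, where 19.7% of all genes tested were called (10.0% higher and 9.61% lower). The median log2 fold change was 0.04, against 0.001 for all genes tested. DEGs by a fold change of at least 2 were GSTM1 and GSTA4, higher, and TXNIP, lower. GSTM1 passed the count filter only through the TET1-CD libraries. With 10 counts required in every library, 22 of 74 pathway genes were called, 11 higher and 11 lower. In that setting 1338 genes were called higher and 1374 lower among all 13547 tested. Fewer of these genes were called without TET1-CD replicate 1 or without TET1-CD replicate 2, as was so over all genes tested. Their median log2 fold change was then 0.026 and 0.017. The genes of the list went both ways in every role with calls except NADPH supply.

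**Figure D4:**
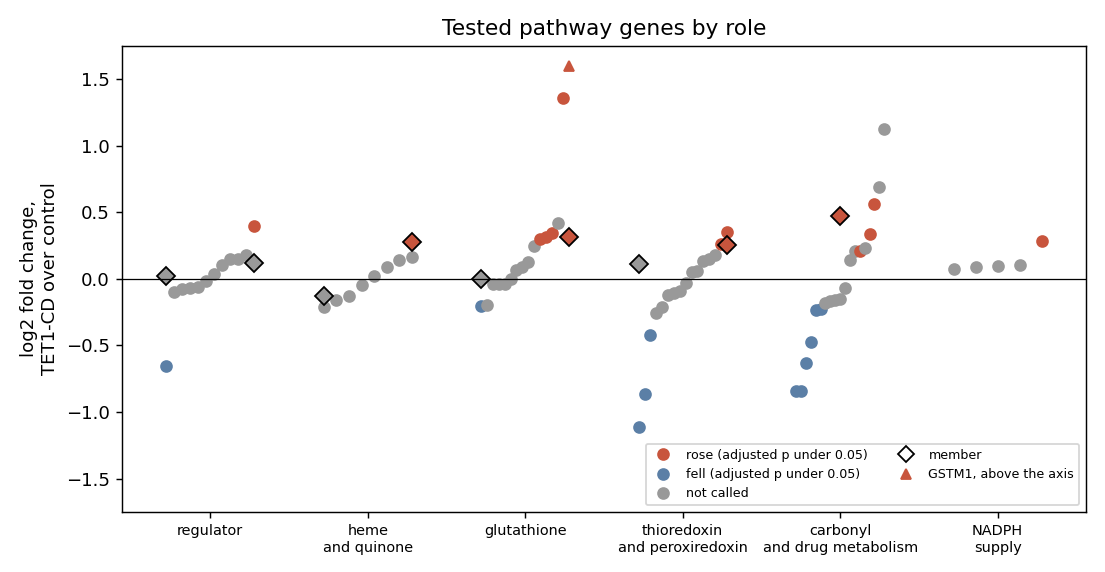
Log2 fold changes, TET1-CD over control, of every tested gene of the pathway list, arranged by role along the horizontal axis and by size within a role. Red genes rose and blue genes fell with an adjusted p under 0.05 by edgeR, grey genes were not called, diamonds with a black edge are the 9 tested members, and the triangle is GSTM1, at 3.27 above the axis. The 12 rises and 11 falls among the other genes spread over 5 of the 6 roles.

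Transcripts were examined because several members have more than 1 promoter or reading frame. The files list 87 transcripts of the 10 genes, of which 37 had enough counts. By edgeR none was called, 11 had an unadjusted p under 0.05, and among all 43213 transcripts tested 0.00231% were called. DESeq2 called 7 of the 37 against a background of 6.39%, and limma-voom called 0 against 0.106%. The 7 include ENST00000569118 of NQO1 (adjusted p = 0.0323 by DESeq2 and 0.29 by edgeR). Neither control library held a count of it, so it passed the filter through its TET1-CD counts alone, 11.8 and 16.2. The fragments were divided among overlapping transcripts by an estimator that is not named in the sources used here, so shares are estimates.

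For TXNRD1, the shares of several transcripts lay apart between the groups, and 2 of the larger ones are described first. How often shares lie apart over all transcripts was not counted. Shares were not tested, and the tests below are of the abundance of each transcript. ENST00000526691, which GENCODE 44 gives a reading frame of 551 codons, held 31.7% and 30.9% of the gene's counts in the control and 16.6% and 15.1% in the TET1-CD libraries. ENST00000388854, which is not in GENCODE 44, held 4.2% and 3.01% in the control and 12.6% and 12.3% in the TET1-CD libraries. The TET1-CD libraries were lower for the first and higher for the second. Their log2 fold changes were -0.87 and 1.89, with adjusted p-values of 0.172 and 0.211 by edgeR, 1.82e-20 and 6.20e-17 by DESeq2, and 0.0621 for each by limma-voom. ENST00000526266 held 1.67% and 1.71% in the control and 2.31% and 2.43% in the TET1-CD libraries. Its log2 fold change was 0.61, with an adjusted p of 0.251 by edgeR and 0.00102 by DESeq2. These 3 were the TXNRD1 transcripts that DESeq2 called. The most abundant TXNRD1 transcript, ENST00000397736, held 32% and 43.7% in the control and 37.4% and 45.5% in the TET1-CD libraries, so its share varied as much within a group as between groups. ENST00000542918 had 0 counts in control replicate 2 and 785 to 1068 in the other libraries, so the division among the 26 listed TXNRD1 transcripts also differed within a group.

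NFE2L2 was made up of 2 main transcripts. ENST00000397062, with a reading frame of 605 codons, held 62.5% and 60.7% of the counts in the control and 68.8% and 68.3% in the TET1-CD libraries. ENST00000397063, which starts downstream and encodes 589 codons, held 35.1% and 37.6% in the control and 29.8% and 31% in the TET1-CD libraries. The shares of the groups did not overlap, but the log2 fold changes of 0.18 and -0.24 did not pass (adjusted p = 0.359 and 0.405 by edgeR, 0.0725 and 0.197 by DESeq2). For KEAP1, both main transcripts have the same 624 codons, and their shares overlapped between the groups.

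NQO1 was spread over 4 larger transcripts. The canonical ENST00000320623, of 274 codons, held 17.5% and 14.3% in the control and 12.6% and 13% in the TET1-CD libraries, with a log2 fold change of -0.44 (adjusted p = 0.246 by edgeR and 2.25e-04 by DESeq2). The largest, ENST00000564043, of 253 codons, held 33% and 34.9% in the control and 38.3% and 38.4% in the TET1-CD libraries and had a log2 fold change of 0.05. GCLM, HMOX1, SRXN1 and GCLC each had nearly all their counts on 1 transcript, with a lowest share of 90.7% for GCLC in control replicate 2.

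**Figure D5:**
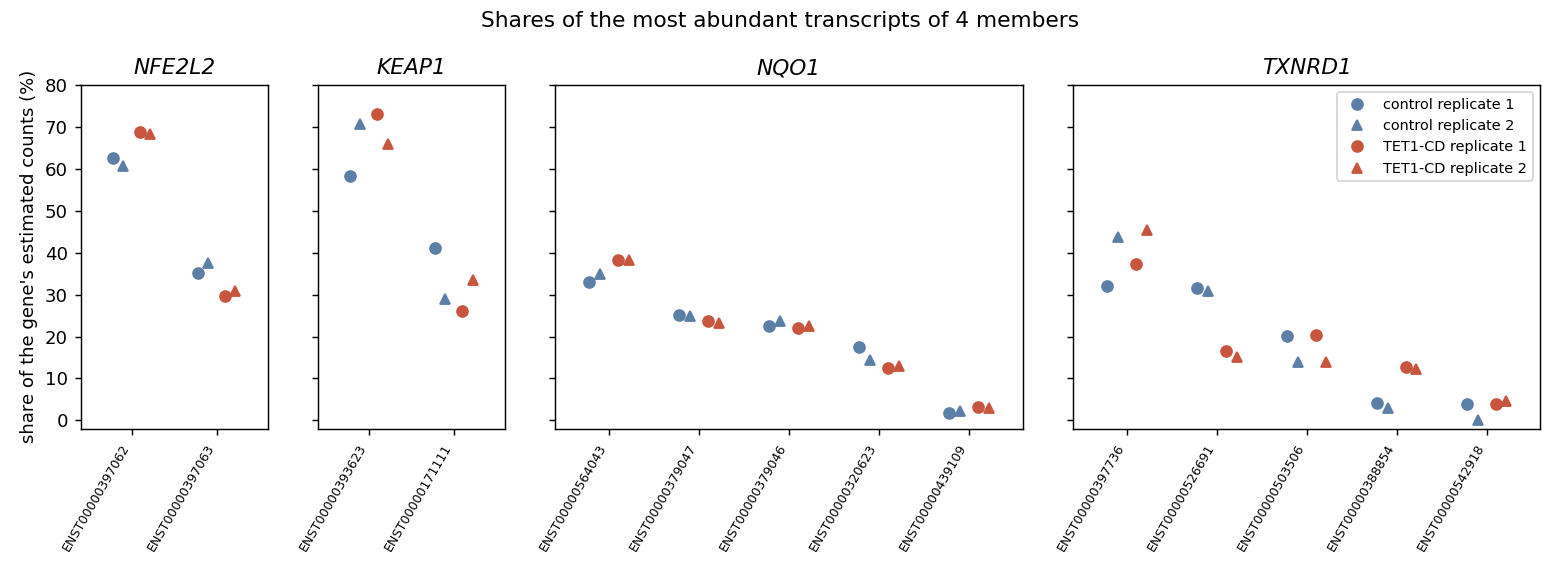
Share of the estimated counts of NFE2L2, KEAP1, NQO1 and TXNRD1 held by their most abundant transcripts (vertical axis, %), with control in blue and TET1-CD in red, circles for replicate 1 and triangles for replicate 2. For TXNRD1, ENST00000526691 lies above 30% in the control and under 17% in the TET1-CD libraries and ENST00000388854 under 5% and over 12%, while ENST00000397736 and ENST00000503506 differ as much between replicates as between groups.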

How the data were processed

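Bulk RNAseq of 4 libraries was analysed, 2 control (EV) and 2 TET1-CD. For each Ensembl transcript, the authors deposited expected counts (estimated fragment numbers) and FPKM values on hg19. The submitters' processing notes name cutadapt 1.9.1, HISAT2 2.0.1, HTSeq 0.6.1 and DESeq2, without role or order, and poly(A) selection or rRNA removal. The estimator and strand setting are not given in the sources used here.

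Expected counts were summed per gene and rounded. EdgeR 4.0.16 in R 4.3.3 (glmQLFit, glmQLFTest, filterByExpr, TMM factors 0.993 to 1.005) compared TET1-CD with control over 14573 genes, with Benjamini-Hochberg adjustment, two-sided. SE was obtained by dividing a gene's log2 fold change by the root of its F statistic. FPKM values, summed over transcripts, gave levels between genes. DESeq2 1.42.0, limma 3.58.1, other scalings and filters, a replicate block and the omission of each library were alternatives, which with the main test make 12 settings. Scripts were tested on simulated data.

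The 10 members and the 86 other genes, in 6 roles, were chosen with earlier results of these data known, and 1 further gene is not reported here. Named were all members, AKR1C2, AKR1C3 and AKR1B1 as near copies, TET1, and up to 4 called genes per role with the smallest p. Other pathway genes were named after their values were seen. Promoter windows came from RefSeq (GRCh38.p14), and reading frames from GENCODE 44 on GRCh37. Coding sequences were aligned with Biopython 1.88. Intervals and the floor of 3 counts cover counting error only where so stated. The chi-square per gene between replicates was 6.41 for control and 2.75 for TET1-CD, so that neither pair was 1 library deposited again.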

Additional observations from a re-analysis of the deposited data

How the results depend on the processing

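The direction of HMOX1, GCLM, SRXN1, AKR1C1, KEAP1, TXNRD1 and NQO1 was the same in all 12 settings. With DESeq2, 2 members were called in place of 4, and over all genes 887 were higher and 852 lower in place of 1464 and 1401. With 1 library left out, the members called ranged from 0 to 4, the other pathway genes called from 6 to 32, the members' median log2 fold change from 0.093 to 0.171, and the other genes' median from -0.0315 to 0.0519. Which members were called also changed with the library left out. Without control replicate 1 the log2 fold change was 0.17 for HMOX1, 0.32 for AKR1C1, -0.20 for NQO1 and 0.18 for TXNRD1. GCLC changed sign with limma-voom (-0.0008) and without a filter (-0.0011), and ranged from -0.0484 to 0.054 with 1 library left out, where NFE2L2 ranged from -0.0036 to 0.0368. The cause of these shifts was not tested. A lone library is assumed to vary like the other group. Of the members' transcripts, DESeq2, added after the data were seen, called 7 and edgeR 0.

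The sources do not say whether same-numbered libraries share more than a number. Their deviations correlated at 0.0071 over 14573 genes, which cannot decide this with 2 libraries per group. With the replicate block, 1622 genes were called higher and 1613 lower over all genes, in place of 1464 and 1401. With the replicate block, 4 members and 24 other genes were called, 4 and 23 of them shared, the medians were 0.12 and 0.04, no transcript was called, no member was a DEG, and the AKR1C sum was at -0.06. With 2 libraries per group, changes smaller than the spread between libraries cannot be resolved.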
